A study of Mus musculus with 9 samples.

Results

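The annexin genes Anxa1, Anxa2, Anxa3, Anxa4, Anxa5, Anxa6, Anxa7 and Anxa11 were followed around a brain infarct in mice. These 8 genes were taken by name from a deposited table of 55401 genes, and all 8 were found. The table holds 4 further annexin genes, Anxa8, Anxa9, Anxa10 and Anxa13. Libraries came from WT mice at day 28, 3 per group, and the labels give no strain, sex or age. Sham mice had no infarct and received ultrapure water by gavage. PT mice had photothrombosis, in which a light-activated dye closes cortical vessels, and received the same water. Pushen mice had photothrombosis and received Pushen, a Suzhong pharma preparation, by gavage from 24 h after surgery for 28 days, with labelled doses of 391, 392 and 393 mg/kg in libraries 1, 2 and 3. The tissue is the region around the infarct. The 9 libraries held between 57437342 and 75100133 counts. Whether each library is another mouse is not said in the labels, and a p-value here speaks only of how these libraries vary, which can include technical variation.

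Annexins are proteins that bind acidic phospholipids, among them phosphatidylserine, when calcium rises. They share a conserved core and differ in a variable N-terminal tail, which in several members binds a small EF-hand protein of the S100 family. They act in membrane repair, vesicle traffic, clearance of dying cells and the damping of inflammation, and in injured brain they are known from microglia, macrophages, astrocytes and vessels as well as from neurons.

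The labels give the tissue as brain, while the extraction protocol in the labels names retinas. A list of 8 neuronal markers summed to between 591 and 1076 FPKM (fragments scaled to gene length and library size) in each library, and 10 photoreceptor genes summed to between 0.52 and 1.1 FPKM, with Opn1sw, Opn1mw and Crx at 0 counts in all sham libraries. Choroid plexus markers (8 genes) summed to 550 FPKM in PT library 1 and 632 FPKM in Pushen library 2, against 3.75 to 152 FPKM elsewhere, and 8 striatal markers reached 543 FPKM in PT library 1 against 68.9 to 131 FPKM elsewhere. Counts of called annexins are therefore also given without those 2 libraries.

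Promoters are shown for Anxa4 and Anxa5, which rose together around the infarct, and for Anxa11, which was not called. RefSeq windows on GRCm38.p6 were matched for 6 of the 8 genes, and Anxa3 and Anxa6 were not matched. Anxa4 and Anxa7 had 2 entries each, of which 1 window per gene is described here. The RefSeq starts of Anxa1 and Anxa2 lie 273 and 63 bases inside the genes as the deposited table places them, where GENCODE M21 annotates exons, and their windows are described without their letters. Each line gives the 250 bases before the transcription start, 5′ to 3′ in the direction of the gene, with motif matches in capitals (CCGCCC is the GC box read on the other strand). The windows lie at chr19:20390672-20390921 on the minus strand (Anxa1), chr9:69453433-69453682 on the plus strand (Anxa2), chr6:86793585-86793834 on the minus strand (Anxa4), chr3:36475888-36476137 on the minus strand (Anxa5) and chr14:25841905-25842154 on the plus strand (Anxa11).
Anxa4 promoter: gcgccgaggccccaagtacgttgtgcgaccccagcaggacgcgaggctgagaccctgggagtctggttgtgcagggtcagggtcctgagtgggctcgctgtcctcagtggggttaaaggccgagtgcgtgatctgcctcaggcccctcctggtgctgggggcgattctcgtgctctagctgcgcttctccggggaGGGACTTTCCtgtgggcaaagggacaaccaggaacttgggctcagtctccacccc
Anxa5 promoter: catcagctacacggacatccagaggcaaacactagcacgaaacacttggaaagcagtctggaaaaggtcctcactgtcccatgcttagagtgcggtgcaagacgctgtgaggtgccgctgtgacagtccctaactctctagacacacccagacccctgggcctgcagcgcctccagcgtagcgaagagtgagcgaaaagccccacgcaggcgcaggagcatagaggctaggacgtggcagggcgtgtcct
Anxa11 promoter: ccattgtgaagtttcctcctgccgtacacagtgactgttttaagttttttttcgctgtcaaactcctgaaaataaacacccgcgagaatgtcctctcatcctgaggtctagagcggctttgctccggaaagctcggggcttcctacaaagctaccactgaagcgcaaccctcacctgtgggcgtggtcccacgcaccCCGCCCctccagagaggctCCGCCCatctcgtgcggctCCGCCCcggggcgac
The letters searched, on both strands, were TGANTCA for AP-1, TTCNNNGAA for STAT factors, GNACA and TGTNC with any 3 bases between them for the glucocorticoid receptor, GGGA and CC with any 4 bases between them for NF-kappaB, GGGCGG for the GC box, CCAAT for the CCAAT box, and TATAAA for the TATA box. The TATA letters stood 32 bases before the start in Anxa1 and 17 bases before it in Anxa2, and 12.4% of all 32851 promoter windows of this length hold them. Anxa2 also held the AP-1 pattern, as TGAGTCA (6.75% of windows hold TGANTCA), and 3 GC boxes (32.7% of windows hold at least 1). NF-kappaB letters were found in Anxa1 as GGGAAAATCC and in Anxa4 as GGGACTTTCC (17.6% of windows). Anxa5 held none of the 7 patterns in this window, and Anxa11 held 3 GC boxes. STAT letters (7.02% of windows), the glucocorticoid receptor letters (0.387%) and CCAAT (33.8%) were in none of the 6 windows, and the window of Anxa7 held 1 GC box and no other match. GC content was 46.0% in Anxa1 and 42.4% in Anxa7, against 62.4%, 64.8%, 58.8% and 58.0% in Anxa2, Anxa4, Anxa5 and Anxa11 and a median of 52.4% over all windows. A match to letters is a description of the sequence and no measure of binding.

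Around the infarct, 5 of the 8 annexins were higher in PT than in sham: Anxa1, Anxa2, Anxa3, Anxa4 and Anxa5. The other 3, Anxa6, Anxa7 and Anxa11, were not called in either direction. At a Benjamini-Hochberg adjusted p under 0.05, the edgeR quasi-likelihood test called 30.9% of all 16740 tested genes, 19.1% higher and 11.8% lower. In the same 5 annexins every PT library lay above every sham library in scaled counts, as in 26.2% of tested genes; all PT libraries lay below sham in 23.4%. The same 5 annexins were called higher in Pushen against sham, a comparison that shares the sham libraries and called 16.2% of tested genes, 13.5% higher and 2.73% lower. There the groups stood apart upward in 23.1% of tested genes and downward in 19.6%. The median log2 fold change over the 8 annexins was 1.55 in PT and 1.35 in Pushen, against -0.00 and -0.01 over all tested genes. The same 5 were called without PT library 1 and Pushen library 2. In tissue samples, more cells of a type and more RNA per cell cannot be told apart.

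**Figure D1:**
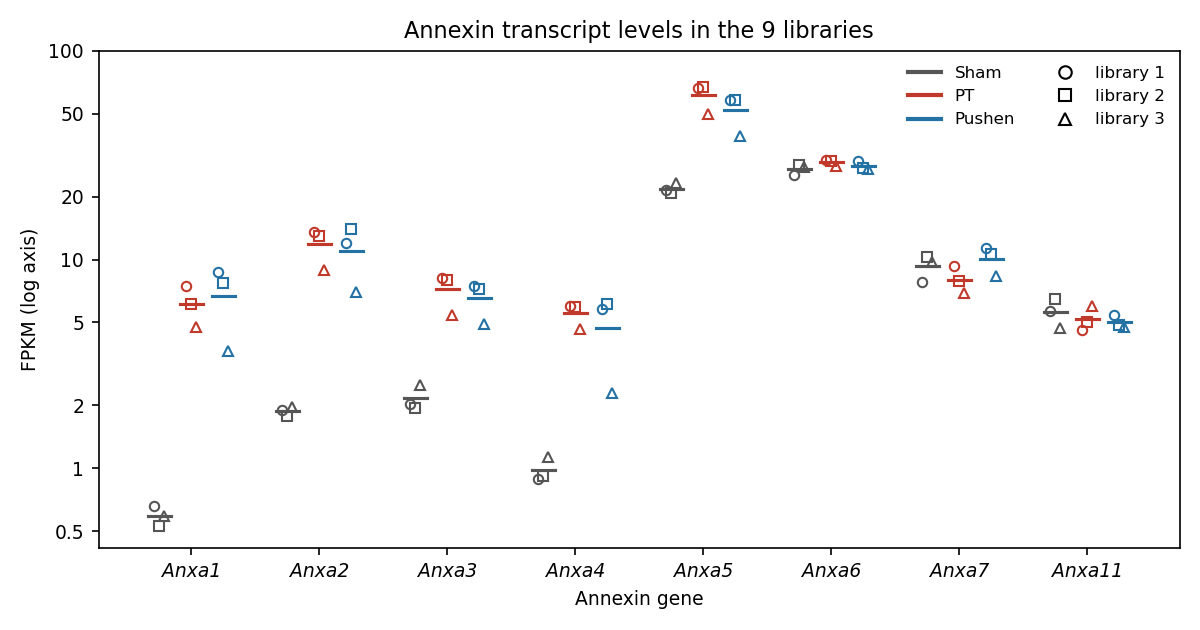
FPKM (log axis) of 8 annexin genes in the 9 libraries; symbols mark the library number, colours the group and bars the mean of 3 libraries. For Anxa1 to Anxa5 all PT and Pushen libraries lie above all sham libraries, while for Anxa6, Anxa7 and Anxa11 the groups overlap.

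Anxa1 binds formyl peptide receptors on leukocytes and damps their recruitment, and glucocorticoids are known to induce it. It was the least abundant of the 8 in sham, at 0.66, 0.53 and 0.59 FPKM in libraries 1, 2 and 3. PT libraries stood at 7.43, 6.15 and 4.75 FPKM and Pushen libraries at 8.76, 7.75 and 3.66 FPKM. The lowest infarct library was thus 5.55 times the highest sham library. The fitted rise in PT was 9.77-fold, a log2 fold change of 3.29 ± 0.32 (SE; edgeR adjusted p = 0.000461). In Pushen against sham the log2 fold change was 3.41 ± 0.33 (edgeR adjusted p = 0.000546). In PT against sham 97.8% of tested genes had a lower fold change than Anxa1. The deposited table places the gene on the minus strand of chromosome 19, at 20373428 to 20390944 in GRCm38 coordinates.

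Anxa2 forms a complex with S100A10 at the cell surface and holds plasminogen and its activator there. Sham libraries stood at 1.91, 1.78 and 1.96 FPKM, a narrow spread (coefficient of variation 4.93%). PT libraries reached 13.57, 12.91 and 8.95 FPKM and Pushen libraries 11.97, 14.03 and 6.98 FPKM, with no overlap with sham. The log2 fold change in PT was 2.59 ± 0.25 (edgeR adjusted p = 0.000461). It was 2.47 ± 0.25 in Pushen against sham (edgeR adjusted p = 0.000634). The position of Anxa2 is chromosome 9, 69453620 to 69491795, plus strand.

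Anxa4 is an annexin best known from epithelia, where it binds membranes. It stood at 0.89, 0.92 and 1.13 FPKM in sham and at 6.0, 5.91 and 4.66 FPKM in PT, a log2 fold change of 2.42 ± 0.33 (edgeR adjusted p = 0.00111). Pushen libraries 1 and 2 held 5.78 and 6.10 FPKM and library 3 held 2.29 FPKM. All infarct libraries were above sham, and Pushen library 3 was at less than the level of every other infarct library. The log2 fold change in Pushen against sham was 2.19 ± 0.32 (edgeR adjusted p = 0.00252). The position of Anxa4 is chromosome 6, 86736840 to 86793584, minus strand.

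Anxa3, an annexin of myeloid cells and vessels, stood at 2.03, 1.95 and 2.50 FPKM in sham, 8.16, 7.98 and 5.43 FPKM in PT and 7.43, 7.21 and 4.89 FPKM in Pushen. The groups of infarct libraries overlapped each other and lay above sham. The log2 fold change was 1.67 ± 0.21 in PT (edgeR adjusted p = 0.000759) and 1.52 ± 0.20 in Pushen (edgeR adjusted p = 0.00165), each against sham. The position of Anxa3 is chromosome 5, 96793339 to 96845966, plus strand.

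Anxa5 coats phosphatidylserine exposed on dying cells and is widely used as a stain for them. It had the smallest fold of the 5 in PT and the largest gain in FPKM. Sham libraries held 21.48, 20.74 and 23.15 FPKM, PT libraries 66.37, 67.07 and 49.71 FPKM, and Pushen libraries 58.36, 58.31 and 39.01 FPKM. All infarct libraries exceeded all sham libraries, the lowest by 1.69 times. The log2 fold change in PT was 1.43 ± 0.17 (edgeR adjusted p = 0.000644), and in Pushen against sham it was 1.18 ± 0.17 (edgeR adjusted p = 0.00195). The position of Anxa5 is chromosome 3, 36448923 to 36475894, minus strand.

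Anxa6, which acts in endocytosis and cholesterol transport, was nearly level across libraries. It stood at 25.47, 28.23 and 27.67 FPKM in sham, 29.95, 29.52 and 28.05 FPKM in PT, and 29.62, 27.34 and 27.13 FPKM in Pushen. The highest of the 6 infarct libraries was 1.10 times the lowest. The log2 fold change in PT against sham was 0.05 with a 95% interval from -0.10 to 0.20 (edgeR adjusted p = 0.610), the narrowest interval of the 8 genes. Its sign in Pushen against sham depended on the scaling: -0.02 ± 0.07 after the trimmed mean of M values and 0.05 with library size alone. The position of Anxa6 is chromosome 11, 54979108 to 55033445, minus strand.

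Anxa7, also called synexin, promotes the fusion of secretory granules. It stood at 7.81, 10.31 and 9.76 FPKM in sham, 9.28, 7.85 and 6.91 FPKM in PT, and 11.34, 10.59 and 8.30 FPKM in Pushen, and all 3 groups overlapped. The log2 fold change in PT against sham was -0.27 with a 95% interval from -0.60 to 0.07 (edgeR adjusted p = 0.200). The position of Anxa7 is chromosome 14, 20455260 to 20480133, minus strand.

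Anxa11 links RNA granules to lysosomes for transport along axons. Sham libraries stood at 5.67, 6.47 and 4.69 FPKM, PT libraries at 4.59, 5.02 and 5.98 FPKM and Pushen libraries at 5.43, 4.88 and 4.75 FPKM, again overlapping. The log2 fold changes against sham were -0.17 (95% interval -0.49 to 0.15) in PT and -0.23 (-0.55 to 0.09) in Pushen, with edgeR adjusted p of 0.396 and 0.303. The position of Anxa11 is chromosome 14, 25842156 to 25886804, plus strand. Its exons share 113 bases with the antisense gene Anxa11os, which had 3 to 19 counts per library. Without stated strand, reads of the pair cannot be told apart there. Exons of Anxa2, Anxa3 and Anxa4 share 98, 112 and 75 bases with the genes Gm16144, Gm42603 and Gm44036, none of which exceeded 23 counts in a library.

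**Figure D2:**
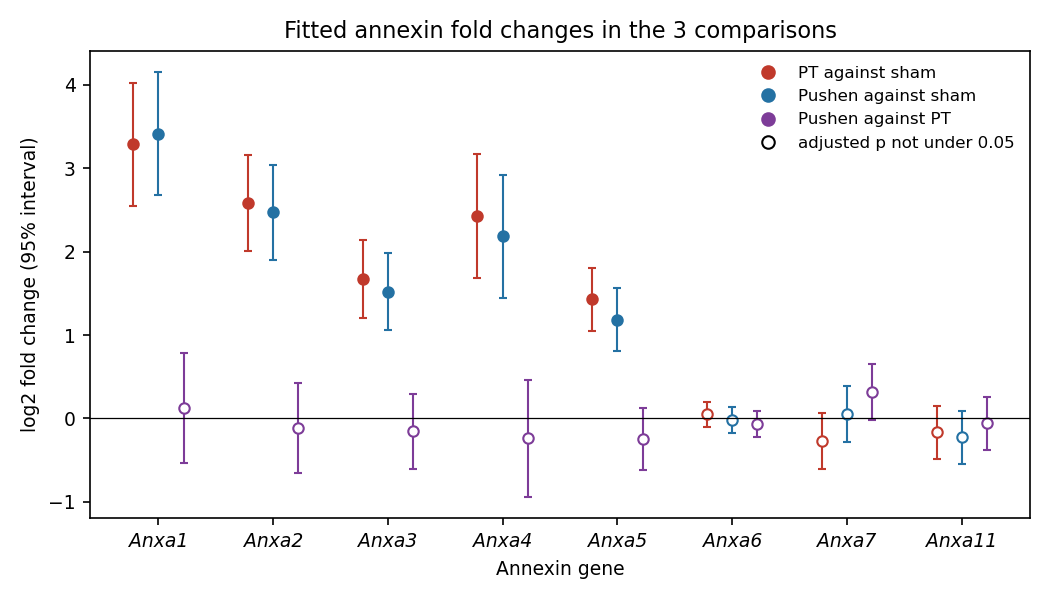
Fitted log2 fold changes of 8 annexins with 95% intervals in 3 comparisons; filled points had an edgeR adjusted p under 0.05. Anxa1 to Anxa5 lie above 0 against sham in both infarct groups, and all 8 intervals for Pushen against PT include 0.

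Of the annexins outside the 8, none reached the mean of 0.5 FPKM needed for testing. Anxa9 stood at 0.13 to 0.25 FPKM in sham, 0.55 to 0.74 in PT and 0.61 to 0.77 in Pushen. With no filter on low values its log2 fold change in PT was 1.74 ± 0.32 (edgeR adjusted p = 0.00592) and in Pushen 1.90 ± 0.32 (edgeR adjusted p = 0.00533). Its exons share 71 bases with Mindy1 on the other strand, which had 1271 to 2406 counts per library, and 94 bases with 6330562C20Rik on its own strand, which had 16 to 93 counts against 21 to 132 for Anxa9, so the value of Anxa9 is uncertain. Anxa8 stood at 0.12 to 0.26 FPKM in sham and 0.21 to 0.86 FPKM in PT and was not called without the filter (edgeR adjusted p = 0.122). Anxa10 had 0 counts in all libraries, and Anxa13 was at most 0.12 FPKM.

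The make-up of annexin RNA differed between sham and infarct libraries. Summed over the 12 genes, annexins reached 69.9 ± 3.10 FPKM in sham (SD, n = 3), 135 ± 17.3 in PT and 125 ± 23.4 in Pushen. Anxa6 led in sham with 38.8% ± 0.634 of the sum, followed by Anxa5 with 31.2% ± 1.88 (SD, n = 3). In PT Anxa5 led with 45.0% ± 1.81 and Anxa6 held 21.8% ± 2.22; in Pushen the shares were 41.4% ± 1.38 and 22.9% ± 4.17. Anxa5 alone made up 60.1% of the difference in summed FPKM between PT and sham, Anxa2 15.2% and Anxa1 8.44%. These contributions depend on the length used: by the length of the principal transcript in place of all annotated exons they were 41.4%, 26.3% and 9.87%. The share of Anxa1 was 0.852% ± 0.130 in sham and 4.49% ± 0.505 in PT. The 8 genes held between 99.0% and 99.4% of the sum in every library.

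The order of levels by FPKM in sham was Anxa6, Anxa5, Anxa7, Anxa11, Anxa3, Anxa2, Anxa4 and Anxa1. In it only the ranges of the neighbours Anxa3 and Anxa2 overlapped between libraries, and Anxa3 was the higher within every sham library. In PT the order was Anxa5, Anxa6, Anxa2, Anxa7, Anxa3, Anxa1, Anxa4 and Anxa11. There Anxa5 and Anxa6 stood clear of each other and of the rest. The ranges of every neighbouring pair from Anxa2 (11.8 FPKM) down to Anxa11 (5.20 FPKM) overlapped between libraries. Within every PT library, however, Anxa2 stood above Anxa7, Anxa3 above Anxa1 and Anxa1 above Anxa4. The pairs Anxa7 and Anxa3, and Anxa4 and Anxa11, were each reversed in 1 PT library. The order in Pushen was Anxa5, Anxa6, Anxa2, Anxa7, Anxa1, Anxa3, Anxa11 and Anxa4, with the same 2 genes clear of the others.

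Levels per length depend on the length used. The deposited FPKM matched counts divided by the union of all annotated exons in GENCODE M21, with the same factor of 1.14 in all 8 genes. That union is 1.03 times the longest principal transcript for Anxa5 but 2.58 times for Anxa2, whose models include a retained intron. Recomputed per length of the principal transcript and library total, a choice made after seeing the data, Anxa2 stood at 5.54 in sham and 34.7 in PT, against 36.3 and 39.1 for Anxa6 and 25.5 and 71.4 for Anxa5. On this scale Anxa5 held 23.1% of the annexin sum in sham and 32.2% in PT, and Anxa6 32.9% and 17.9%. Anxa6 led in sham and Anxa5 in PT on both scales. The PT ranges of Anxa2 and Anxa6 overlapped on the recomputed scale and not by FPKM. Within every PT library Anxa2 lay below Anxa6 on both scales. Fold changes of a gene between groups do not depend on its length.

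**Figure D3:**
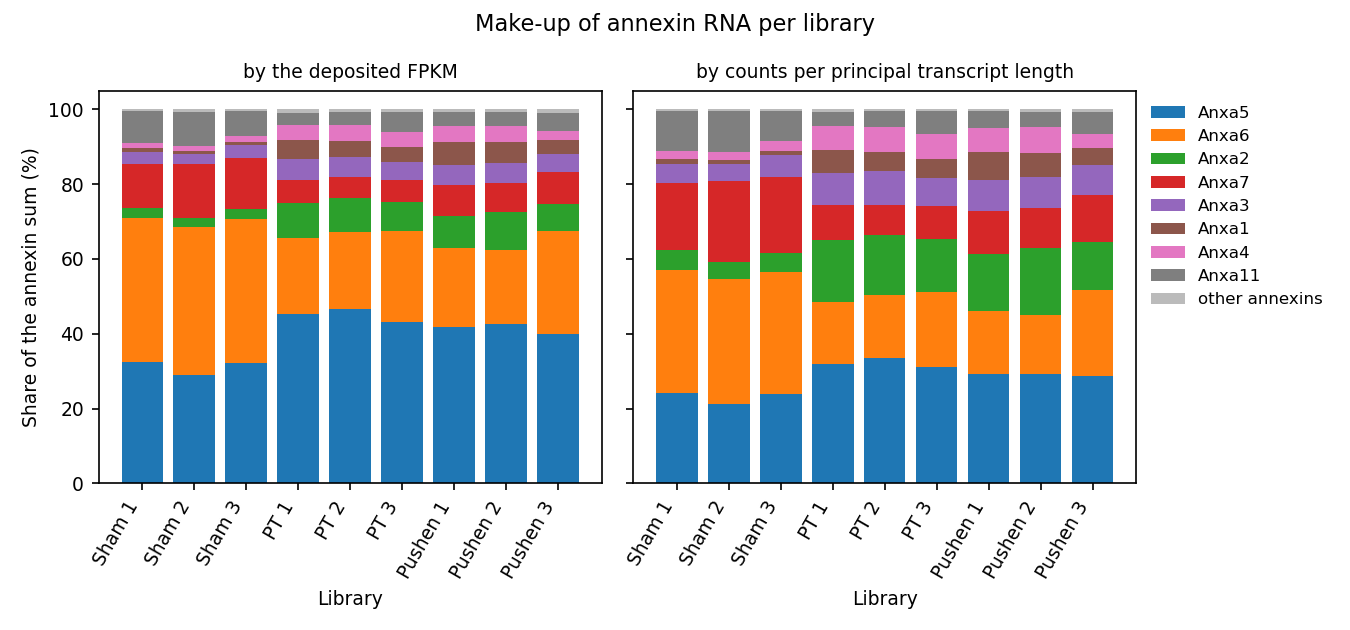
Share of summed annexin RNA (%) held by each gene in every library, by deposited FPKM (left) and by counts per principal transcript length (right, without Anxa13). On both scales Anxa6 is the largest share in the sham libraries and Anxa5 in the PT and Pushen libraries.

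The Pushen and PT groups, both with infarcts, differ by the treatment. None of the 8 annexins was called by edgeR, DESeq2 or limma, and none had an unadjusted edgeR p under 0.05, as 6.49% of all tested genes had. Over all genes edgeR called 0 (0%) with 1086 at an unadjusted p under 0.05, limma called 0 and DESeq2 called 49. Pushen and PT libraries overlapped for all 8 annexins, while 6.25% of tested genes stood apart upward and 5.97% downward. The median log2 fold change was -0.09 over the 8 annexins and -0.01 over all tested genes. The comparison shares its PT libraries with PT against sham.

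The widest bounds were those of the genes that varied most. Anxa4 had a log2 fold change of -0.24 with a 95% interval from -0.94 to 0.46, and Anxa1 had 0.12 with an interval from -0.54 to 0.79. For Anxa2 the value was -0.11 (-0.65 to 0.42), for Anxa3 -0.15 (-0.60 to 0.30) and for Anxa5 -0.25 (-0.62 to 0.12). Differences of any size within these intervals are not excluded by these libraries. Anxa6 was at -0.07 (-0.22 to 0.08) and Anxa11 at -0.06 (-0.38 to 0.26). Anxa7 had the smallest adjusted p of the 8, with a log2 fold change of 0.32 (-0.02 to 0.66; edgeR adjusted p = 0.707). PT library 1, at 9.28 FPKM, exceeded Pushen library 3, at 8.30 FPKM.

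Within the 6 infarct libraries, Pushen library 3 was the lowest and PT library 3 the second lowest for all 5 annexins that rose. The highest library differed: PT library 1 for Anxa3, PT library 2 for Anxa5, Pushen library 1 for Anxa1 and Pushen library 2 for Anxa2 and Anxa4. Relative to the sham mean, Anxa1 ranged from 6.17 times in Pushen library 3 to 14.8 times in Pushen library 1, and Anxa4 from 2.34 times in Pushen library 3 to 6.22 times in Pushen library 2. Anxa5 ranged from 1.79 to 3.08 times. The coefficient of variation over Pushen libraries was 40.2% for Anxa1 and 44.7% for Anxa4, against 4.93% for Anxa6. Without Pushen library 3 the Pushen against PT values of Anxa2, Anxa3 and Anxa4 turned positive (0.12, 0.01 and 0.09), and that of Anxa1 was 0.42; edgeR adjusted p lay between 0.815 and 0.995 for these 4 genes.

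Sums of marker lists are given beside these levels, and not every list was lowest in library 3 of each infarct group. Monocyte and macrophage markers (8 genes, of which Lyz2 made up most) summed to 4.82 to 7.16 FPKM in sham, 508 to 616 in PT, 532 and 663 in Pushen libraries 1 and 2, and 118 in Pushen library 3. Of the 6 tested genes of this list 5 rose in PT. All tested ones but Lyz2 averaged under 0.5 FPKM in sham and passed the filter only through the infarct libraries. Ccr2 and Cd163 were below the filter, and no gene of the list was at 0 in all libraries. Microglia markers (8 genes, 5 higher in PT) summed to 54.4 to 74.3 FPKM in sham, 151 to 226 in PT and 120 to 179 in Pushen, with library 3 lowest in each infarct group. Fibroblast markers, all 8 of them higher in PT, summed to 13.6 to 15.0 FPKM in sham, 107 to 167 in PT and 57.02 to 152 in Pushen, again lowest in library 3. Astrocyte markers (7 of 8 higher) summed to 418 to 461, 742 to 1051 and 629 to 845 FPKM.

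Neuronal markers (6 of 8 lower, 4 of 8 without PT library 1 and Pushen library 2) summed to 966 to 1076 FPKM in sham, 591 to 772 in PT and 738 to 894 in Pushen. The highest infarct library of this list was Pushen library 3. Neutrophil markers summed to 3.63 to 9.08 FPKM in sham and 9.20 to 15.3 in PT. Of their 3 tested genes (S100a8, S100a9 and Ngp) 0 were called. Endothelial markers (7 of 8 higher in PT, 4 without those 2 libraries) summed to 60.03 to 60.41 FPKM in sham and 76.0 to 105 in PT. Their Pushen sums were 80.16, 80.24 and 81.67 FPKM in libraries 1, 2 and 3, so library 3 was the highest of that group. Ependymal markers (8 genes, 7 of 7 tested higher in PT, 5 without those 2 libraries) summed to 4.54 to 7.82 FPKM in sham, 16.7 to 45.0 in PT and 17.2 to 34.1 in Pushen. T cell markers (8 genes, 3 of 3 tested higher, Cd3d at 0 in all sham libraries) summed to 0.73 to 1.1, 4.88 to 11.1 and 4.07 to 7.87 FPKM. Both of these lists were lowest in library 3 of each infarct group. Ccdc153, Tmem212 and Tekt1, and all 3 tested T cell genes (Trac, Cd4 and Lck), averaged under 0.5 FPKM in sham. These genes passed the filter only through the infarct libraries, which favoured a call upward. Of 8 oligodendrocyte markers 6 were higher in PT, 1 without those 2 libraries. They summed to 388 to 533 FPKM in sham, 547 to 1022 in PT and 738 to 820 in Pushen. Within Pushen their lowest sum was in library 2. The part of these cell types in the annexin levels was not tested. A fit without PT library 1 and Pushen library 2 covered PT against sham. Its log2 fold changes were 3.13, 2.47, 1.57, 2.36 and 1.36 for Anxa1 to Anxa5. The libraries kept also held choroid plexus transcripts. Those markers summed to 23.9 and 50.6 FPKM in PT libraries 2 and 3, against 3.75 to 18.8 in sham. In Pushen libraries 1 and 3 they summed to 30.8 and 152 FPKM.

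**Figure D4:**
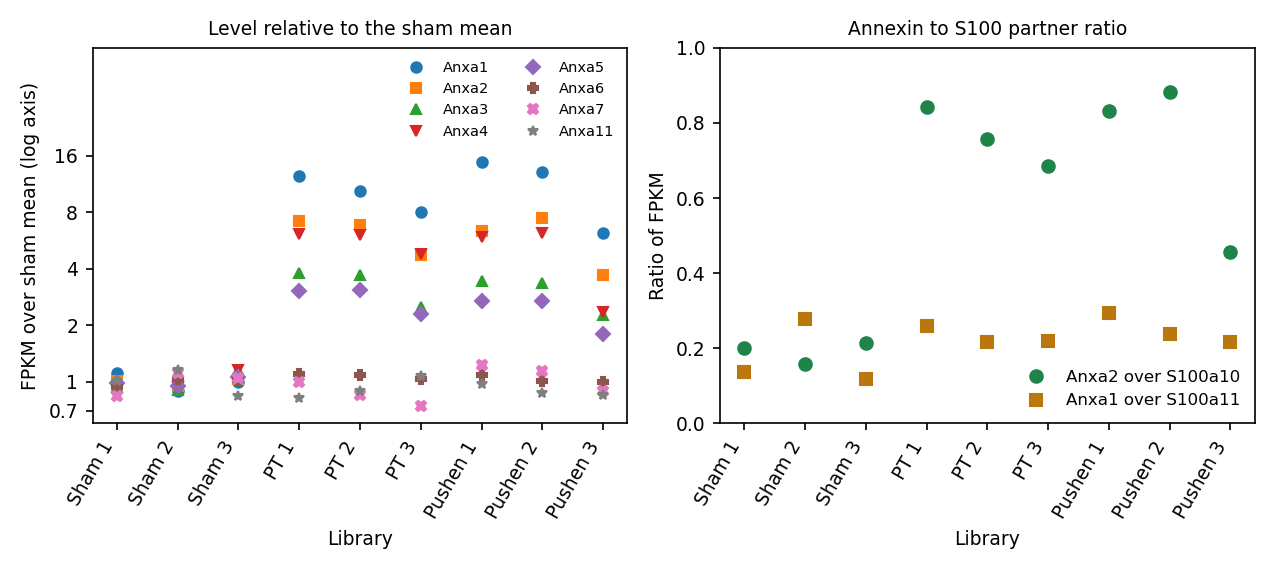
Left, FPKM of each annexin in each library divided by its sham mean (log axis); right, ratio of FPKM of Anxa2 to S100a10 and of Anxa1 to S100a11 in each library. Pushen library 3 is the lowest infarct library for Anxa1 to Anxa5, and the Anxa2 to S100a10 ratio is between 0.158 and 0.214 in sham and between 0.457 and 0.883 in the infarct libraries.

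Of 9 EF-hand and scaffold partners of annexins, 8 rose in PT (7 without PT library 1 and Pushen library 2) and 1 did not pass, with a median log2 fold change of 1.05. S100a4 stood at 3.77 ± 0.44, S100a11, the partner of annexin A1, at 2.68 ± 0.38, S100a6 at 1.36 ± 0.17 and S100a1 at 1.05 ± 0.15. S100a10, the partner of annexin A2, rose by 0.57 ± 0.12 on the log2 scale (edgeR adjusted p = 0.00958). Pdcd6, a partner of annexin A11, stood at 0.07 ± 0.09 (edgeR adjusted p = 0.546). Sri, the partner of annexin A7, rose by 0.33 ± 0.08 and was no longer called when sham library 1, sham library 3 or PT library 2 was left out (edgeR adjusted p = 0.0616, 0.0594 and 0.0535). In Pushen against sham 6 of the 9 rose (5 without PT library 1 and Pushen library 2), among them S100a10 (0.54 ± 0.12), which was no longer called when sham library 1, sham library 3 or Pushen library 2 was left out (edgeR adjusted p = 0.0686, 0.0706 and 0.0716), nor without PT library 1 and Pushen library 2 together (0.0702).

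Because Anxa2 and S100a10 proteins work as a complex, their RNA was set side by side. S100a10 stood at 9.51, 11.30 and 9.18 FPKM in sham, 16.13, 17.06 and 13.06 in PT, and 14.40, 15.89 and 15.26 in Pushen. The ratio of Anxa2 to S100a10 by FPKM was 0.201, 0.158 and 0.214 in sham, 0.841, 0.757 and 0.685 in PT, and 0.831, 0.883 and 0.457 in Pushen. All infarct libraries exceeded all sham libraries in this ratio. The ratio of Anxa1 to S100a11 was 0.138, 0.277 and 0.118 in sham, 0.260, 0.216 and 0.220 in PT and 0.295, 0.237 and 0.216 in Pushen, so sham library 2 lay within the infarct range. In that library S100a11 stood at 1.91 FPKM, against 4.80 and 5.01 FPKM in the other sham libraries. The size of each ratio depends on the lengths used, and its change between groups does not.

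Receptors of annexin A1 were scarce. Fpr1, a formyl peptide receptor of myeloid cells, stood at 0.10 to 0.30 FPKM in sham, 0.20 to 0.67 in PT and 0.35 to 0.44 in Pushen. Fpr2 was at most 0.28 FPKM, and Fpr3 had 2 counts in PT library 1 and 0 elsewhere. All 3 lay below the filter. Without it Fpr1 had a log2 fold change of 1.31 ± 0.53 in PT against sham and was not called (edgeR adjusted p = 0.147).

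Annexin A2 assists plasminogen activation at the cell surface. Plat and Plau, the plasminogen activators, rose in PT by 1.06 ± 0.14 and 1.86 ± 0.29 on the log2 scale, and Plgrkt, a plasminogen receptor, by 0.67 ± 0.13. Plg, plasminogen itself, was at most 0.51 FPKM and below the filter, with 8 to 154 counts in the sham and PT libraries and 0 counts in all 3 Pushen libraries. Without the filter Plg was not called in Pushen against PT (edgeR adjusted p = 0.760). It was called lower in Pushen against sham (edgeR adjusted p = 0.0331). Its sham counts were 15, 8 and 88, so these values rest on few reads. The receptor Plaur rose by 2.43 ± 0.45 in PT against sham (edgeR adjusted p = 0.00475). In Pushen against sham Plaur stood at 2.14 ± 0.45 and was called over all libraries. There it was not called when sham library 1 or 2 was left out (edgeR adjusted p = 0.0516 and 0.0584).

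Of 7 genes listed for the exposure of phosphatidylserine, the lipid annexin A5 binds, or for its return inward, 3 rose and 1 fell in PT. The list was set by name, and such a role of each gene was not tested. Ano6 of this list was not called (0.68 ± 0.30, edgeR adjusted p = 0.113). Plscr1 rose by 2.51 ± 0.32 on the log2 scale, the scramblase Xkr8 by 0.75 ± 0.15 and Plscr3 by 0.45 ± 0.09. Tmem30a, the subunit that phospholipid flippases need, fell from 63.5 to 70.7 FPKM in sham to 40.9 to 50.1 FPKM in PT, a log2 fold change of -0.58 ± 0.10 (edgeR adjusted p = 0.00316). In Pushen it stood at 55.1 to 59.0 FPKM (-0.31 ± 0.10 against sham, edgeR adjusted p = 0.0668). Compared directly with PT, Tmem30a stood at 0.27 ± 0.10 in Pushen and was not called (edgeR adjusted p = 0.707). Its Pushen libraries all lay above PT, as in 6.25% of tested genes. In Pushen against sham 3 of the 7 rose, 1 of them without PT library 1 and Pushen library 2.

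Of 10 membrane repair genes 4 rose in PT (3 without PT library 1 and Pushen library 2), and the other 6 were not called. Myof, a ferlin, stood at 2.24 ± 0.36, the membrane remodeller Ehd2 at 1.25 ± 0.20, the ferlin Dysf at 0.85 ± 0.19 and the protease subunit Capn2 at 0.27 ± 0.08. Capn2 lost its call without any 1 of sham libraries 1, 2 and 3 and PT libraries 1 and 2 (edgeR adjusted p = 0.0559, 0.0831, 0.0739, 0.0616 and 0.0646). Among genes not called were Chmp4b (-0.01 ± 0.07) and Vps4b (-0.03 ± 0.09), parts of the ESCRT machinery.

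Annexin A1 is known to restrain phospholipase A2. Of 7 tested genes of this enzyme and of prostaglandin and leukotriene synthesis, 4 rose in PT: Pla2g4a, the cytosolic phospholipase (1.63 ± 0.25), Ptges (1.56 ± 0.19), Hpgds (1.88 ± 0.25) and Alox5ap (2.34 ± 0.30). The cyclooxygenases Ptgs1 (0.31 ± 0.12) and Ptgs2 (0.13 ± 0.16) were not called (edgeR adjusted p = 0.0846 and 0.557). Of the glucocorticoid receptor and 5 early targets, 3 rose and 1 fell (0 fell without PT library 1 and Pushen library 2). Sgk1 stood at 1.11 ± 0.20, Per1 at 0.75 ± 0.14 and the phosphatase Dusp1 at 0.78 ± 0.21, and the receptor gene Nr3c1 at -0.37 ± 0.12. Dusp1 was not called when sham library 1, sham library 2 or PT library 3 was left out (edgeR adjusted p = 0.0819, 0.0593 and 0.0577), and Nr3c1 without sham library 1, 2 or 3, PT library 1, or Pushen library 1 or 2 (0.132, 0.0858, 0.0624, 0.0917, 0.0604 and 0.0548). Tsc22d3 and Fkbp5, which glucocorticoids induce, were not called (0.29 ± 0.16 and 0.31 ± 0.19; edgeR adjusted p = 0.188 and 0.237). In Pushen against PT edgeR called 0 (0%) of all tested genes, and so none in these partner lists. The absence of calls there says nothing particular to the partner genes.

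Genes whose levels ran closest to each annexin over the 9 libraries were found among 12606 genes, as the root mean square difference of centred log2 CPM. Anxa5 was followed most closely by Arap1 (0.0574) and Sh3pxd2b (0.0697), and Anxa3 by Dapp1 (0.0838) and Zfp217 (0.0840). For Anxa4 the closest were the phospholipid carrier Pltp (0.0983) and the ferritin chain Ftl1 (0.104), both lowest of the infarct libraries in Pushen library 3, at 34.91 and 261 FPKM. For Anxa2 they were Clic1 (0.115) and Hcls1 (0.117), and for Anxa1 H2-DMb1, of class II antigen loading (0.156), and Fcer1g, the signalling chain of Fc receptors (0.172). Anxa6 was closest to Sec24c (0.0237) and Npr2 (0.0282), Anxa11 to Mycn (0.0820) and Gpr45 (0.0822), and Anxa7 to Zkscan4 (0.133) and Zcchc7 (0.139). Among the annexins themselves the closest pair was Anxa3 and Anxa5 (0.159). These values describe the 9 libraries, which differ mainly by group, and genes with little change lie close to many others.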

How the data were processed

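TruSeq RNA libraries of 9 mouse samples were sequenced, per the labels. The authors deposited raw read counts and FPKM per gene, the latter scaled to gene length and library size. The submitters' processing notes name Bowtie 0.12.2 and mm8, whereas 94.2% of the gene identifiers found also in GENCODE M21 (51957 of 55141) carry its GRCm38 coordinates. Counter and strand setting: not given in the sources used here. Columns and libraries were joined by name, with 0 columns unused.

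A gene was tested if its FPKM averaged at least 0.5 (16740 genes). A gene low in sham could pass through the infarct libraries alone, so counts of tested list genes called higher lean upward. Among the partner genes named as higher, this holds for Plaur, Pla2g4a, Plscr1, Myof and Dysf. edgeR 4.0.16 (R 4.3.3) fitted all 3 groups together, with TMM scaling (trimmed mean of M values), the quasi-likelihood test and Benjamini-Hochberg adjustment over every tested gene. Each SE was obtained from the log2 fold change and its F statistic. The fit was tested on simulated data. Alternatives were DESeq2 1.42.0, limma 3.58.1 on log2(FPKM + pseudocount) with pseudocounts of 0.1 and 1, other scalings and filters, 2-group fits, a replicate block and left-out libraries. The annexins and lists were chosen with earlier results of these data known. All 8 annexins were named, with up to 4 genes of smallest p per partner list; others were named after their values were seen, and 1 gene of the plasminogen list, with that list's counts, is not reported here. For each annexin the 2 closest genes were named, among genes averaging at least 1 FPKM. matplotlib 3.10.9 (Python 3.11.15) drew the figures.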

Additional observations from a re-analysis of the deposited data

How the results depend on the processing

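The counts of called annexins, 5 higher in PT and in Pushen against sham and 0 in Pushen against PT, were the same under all 20 alternatives, as were the directions of those 5. Their log2 fold changes in PT ran from 2.14 to 3.43 (Anxa1), 2.13 to 2.74 (Anxa2), 1.36 to 1.83 (Anxa3), 1.72 to 2.54 (Anxa4) and 1.36 to 1.54 (Anxa5), with an adjusted p of at most 0.0085. Genes called lower in Pushen against sham, 457 in all, numbered 239 with library size only, 242 with a replicate block, 1239 with only the 2 groups compared, 1104 by DESeq2, and 219 and 225 by limma with pseudocounts of 0.1 and 1. In Pushen against PT, DESeq2 called 49 genes (20 higher, 29 lower), the 2-group fit 1 (1 lower) and the fit without PT library 1 and Pushen library 2 called 2 (1 higher, 1 lower). That last fit called 1011 genes lower in PT against sham. By principal transcript length Anxa5 held 23.1% of annexin RNA in sham and 32.2% in PT, and Anxa6 32.9% and 17.9%.

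With each library left out in turn, genes called in PT against sham ranged from 3198 (without sham library 1) to 5799, those higher from 2365 to 3358 and those lower from 782 to 2441. In Pushen against PT they ranged from 0 to 5 (0 to 3 higher, 0 to 2 lower). In Pushen against sham they ranged from 1538 to 3736, higher 1431 to 2568, lower 84 to 1168. The sign of small differences turned. In Pushen against PT, log2 fold changes ranged over left-out libraries from -0.10 to 0.42 (Anxa1; -0.02 without PT library 3), -0.33 to 0.12 (Anxa2), -0.32 to 0.0075 (Anxa3), -0.47 to 0.086 (Anxa4) and -0.14 to 0.057 (Anxa11). In Pushen against sham they ranged from -0.054 to 0.0033 for Anxa6 (0.0021 without Pushen library 2, and also without PT library 1 as well) and from -0.048 to 0.17 for Anxa7 (-0.03 without Pushen library 1). Anxa6 stood at 0.052 with library size only and at 0.048 and 0.046 with limma at pseudocounts of 0.1 and 1. The cause of these changes was not tested.

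Same-numbered libraries did not deviate together (0 of 9 pairs over a correlation of 0.1, range -0.228 to 0.0729). With 3 libraries per group this cannot tell whether libraries of the same number were matched or processed together. With the replicate block 4266, 2108 and 0 genes were called in PT against sham, Pushen against sham and Pushen against PT, and 5, 5 and 0 annexins. Each of the 8 annexins had at least 128 counts in every library.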
